A study of Mus musculus with 62 samples.

Results

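The genes described here are 9 components of dopamine signalling in the striatum, taken from the count tables by gene symbol: Drd1, Drd2, Drd3, Ppp1r1b, Adora2a, Adcy5, Gnal, Pde10a and Rgs9. They are 9 of the 56415 genes counted. The question was how each gene stood after acute and chronic ethanol in dorsal and ventral striatum, and how much of this striatal expression appeared in cortical and hippocampal libraries.

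Most neurons of the striatum are GABAergic projection neurons that receive glutamatergic input from the cortex and dopaminergic input from the midbrain. Those of the direct pathway carry the dopamine receptor encoded by Drd1, which couples to the olfactory type stimulatory G protein (alpha subunit encoded by Gnal) and, through the adenylyl cyclase encoded by Adcy5, raises cAMP. Those of the indirect pathway carry the receptor encoded by Drd2, which lowers cAMP, together with the adenosine receptor encoded by Adora2a, which raises it. Both types contain the phosphoprotein encoded by Ppp1r1b, a target of cAMP-dependent protein kinase that in its phosphorylated form inhibits a protein phosphatase, as well as the cAMP- and cGMP-hydrolysing phosphodiesterase encoded by Pde10a and the regulator of G protein signalling encoded by Rgs9, which speeds the switching off of inhibitory G proteins. Drd3 encodes a receptor of the same class as Drd2 that is known mainly from ventral striatum and its islands of Calleja.

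Poly(A) RNA-seq had been run on 62 libraries from 16 male C57BL/6J mice aged 8–10 weeks. Tissue was cored from frozen coronal slices: dorsal and ventral striatum (DS, VS), dorsal and ventral hippocampus (dHPC, vHPC) and cortex (CTX). Mice had been injected intraperitoneally with ethanol at 2 g/kg, given in saline, or with saline alone, once for the acute paradigm or daily for 10 days for the chronic paradigm, with 4 h between the last injection and death. There were 20 groups, 1 for each combination of region, paradigm and treatment, of 3 libraries each, except dHPC acute ethanol and DS chronic ethanol with 4. Replicate numbers below are those of the labels and number the mice within each paradigm and treatment.

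In GRCm39, as given in the count tables, the receptor genes were Drd1 (ENSMUSG00000021478, chr13:54205202-54209724, minus strand), Drd2 (ENSMUSG00000032259, chr9:49251927-49319477, plus strand), Drd3 (ENSMUSG00000022705, chr16:43574389-43643295, plus strand) and Adora2a (ENSMUSG00000020178, chr10:75152711-75170618, plus strand). The signalling genes were Gnal (ENSMUSG00000024524, chr18:67221287-67359863, plus strand), Adcy5 (ENSMUSG00000022840, chr16:34975247-35126108, plus strand), Ppp1r1b (ENSMUSG00000061718, chr11:98239230-98248112, plus strand), Pde10a (ENSMUSG00000023868, chr17:8744204-9200503, plus strand) and Rgs9 (ENSMUSG00000020599, chr11:109116181-109188955, minus strand). Exons of Drd2, Ppp1r1b, Rgs9, Adcy5, Pde10a and Gnal overlap exons of another gene on the opposite strand. The kit used for CTX and dHPC does not keep strand, so in those regions reads of Drd2 and of its partner Gm46111, of Ppp1r1b and its partners 1700003D09Rik and Gm71798, and of Gnal and its partner Mppe1 cannot be separated. No such overlap was found for Drd1, Drd3 and Adora2a.

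The CTX and dHPC libraries formed the first sequencing batch, with 43173748 to 71164766 gene counts each, and the vHPC, DS and VS libraries the second, with 8149628 to 46564992. DS acute ethanol replicate 5 held the 46564992 counts. Region and batch therefore cannot be told apart wherever striatum is set beside CTX or dHPC, whereas each ethanol comparison lies within a single batch. DS chronic saline replicate 2 had 0 counts on chromosomes 7, 8, 9, X, Y and MT and on chromosome 6 past position 23052915, so that Drd2, on chromosome 9, could not be read in it. It was left out of every comparison, of the group means and of the region summaries, leaving 2 DS chronic saline libraries. Its levels of the other genes were 200.1 CPM for Drd1, 1551 for Ppp1r1b and 928 for Adcy5. CPM here are counts scaled to a common library size after normalization over all genes by edgeR's trimmed mean of M-values (TMM).

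The 250 bases upstream of the RefSeq start sites were read for the 3 dopamine receptor genes, because Drd1 and Drd2 label the direct and indirect pathway and because Drd3 followed a different distribution between regions from either. A sequence was at hand for 6 of the 9 genes, in the older build GRCm38.p6, whose coordinates are not those of the count tables. The stretches, 5′ to 3′ on the gene's own strand, were chr13:54055659-54055908 (minus strand) for Drd1, which has a second listed start, chr9:49340153-49340402 (plus strand) for Drd2 and chr16:43761971-43762220 (plus strand) for Drd3. Capitals mark GC boxes, the letters GGGCGG or their reverse complement CCGCCC.
Drd1: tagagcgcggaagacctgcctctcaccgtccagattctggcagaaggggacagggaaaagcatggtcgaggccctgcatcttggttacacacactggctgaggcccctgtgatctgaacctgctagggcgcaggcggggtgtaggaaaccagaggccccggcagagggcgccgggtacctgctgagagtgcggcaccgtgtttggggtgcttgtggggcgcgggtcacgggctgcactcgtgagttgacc
Drd2: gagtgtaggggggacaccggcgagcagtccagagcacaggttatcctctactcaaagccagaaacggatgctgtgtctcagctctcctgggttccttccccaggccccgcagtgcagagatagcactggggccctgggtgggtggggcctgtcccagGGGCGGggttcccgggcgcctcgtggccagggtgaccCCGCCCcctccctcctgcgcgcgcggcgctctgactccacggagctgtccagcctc
Drd3: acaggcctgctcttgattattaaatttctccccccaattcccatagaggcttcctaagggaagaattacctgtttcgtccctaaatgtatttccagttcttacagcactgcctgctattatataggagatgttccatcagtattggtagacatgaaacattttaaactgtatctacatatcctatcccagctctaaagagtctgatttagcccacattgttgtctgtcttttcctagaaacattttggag
The Drd2 stretch held 2 GC boxes and those printed for Drd1 and Drd3 none, while the stretch before the second start of Drd1 held 1, against 32.7% of 32851 mouse promoter stretches of the same length with at least 1 on either strand. GC content was 64.0% for Drd1, 68.8% for Drd2 and 39.2% for Drd3, with a median of 52.4% over all stretches. The cAMP response element TGACGTCA, searched on both strands and present in 1.55% of all stretches, was in none of the 3, nor was its half-site TGACG (17.8% of all stretches).

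In saline mice, the most abundant of the genes per kb of exon in DS was Ppp1r1b, at 500.2 ± 82.4 CPM per kb (SD, n = 5). Adcy5 followed at 159 ± 23.6 and Pde10a at 114 ± 17.7 CPM per kb. Drd2 lay at 82.4 ± 14.3, Adora2a at 76.8 ± 10.9, Rgs9 at 70.5 ± 10.1, Drd1 at 64.9 ± 10.4 and Gnal at 62.5 ± 9.04 CPM per kb. Ppp1r1b was above every other gene in each library and Drd3, at 0.472 ± 0.379 CPM per kb, was below every other, whereas the ranges of neighbours between Adcy5 and Gnal overlapped. Drd1 and Drd2, the defining receptors of the projection neurons, were at 48.6 and 53.9 CPM per kb in saline VS and at 1.90 and 1.31 CPM per kb in saline CTX, so that both regions labelled as striatum held their defining markers.

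Across all libraries, 8 of the 9 genes had their highest mean level in DS and Drd3 in VS, where its mean was 4.35-fold that of DS. The DS and VS ranges overlapped for each gene. For Drd1, Ppp1r1b, Adcy5 and Gnal every striatal library lay above every library of the other regions, whereas for Drd2, Adora2a, Pde10a and Rgs9 a dHPC library, chronic saline replicate 5, reached into the striatal range, and Drd3 of dHPC and vHPC overlapped that of DS. Outside the striatum, the order of dHPC, vHPC and CTX was within the spread of the libraries for each gene.

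Relative to saline DS, the saline VS mean was between 55.4% for Pde10a and 89.4% for Gnal for the 8 genes other than Drd3. Saline CTX stood at 1.60% for Drd2, 2.18% for Adora2a, 2.71% for Rgs9 and 2.93% for Drd1, but at 13.5% for Adcy5 and 20.9% for Gnal. Saline vHPC was at 3.44% for Drd1 and 20.4% for Gnal. In saline dHPC the means were higher, between 12.9% for Drd1 and 26.8% for Gnal, with 1 library well above the others as described further on. Drd3, whose DS level is itself near 0, was at 26.1% in saline dHPC and 26.7% in saline vHPC. Of the other 8 genes, Drd1, Drd2, Adora2a and Rgs9 had the lowest and Gnal and Adcy5 the highest percentages in CTX and vHPC.

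The DS and VS libraries of 10 mice were compared with the mouse as a block. All 9 genes passed a false discovery rate (FDR) of 0.1 in edgeR's quasi-likelihood F test, 8 higher in DS and Drd3 lower, against 17.3% of all tested genes called higher in DS and 18.7% called lower. The log2 difference of DS over VS was 1.09 ± 0.16 (SE) for Pde10a (FDR = 0.000105), 0.74 ± 0.13 for Rgs9 (FDR = 0.000591), 0.69 ± 0.12 for Drd2 (FDR = 0.000619) and 0.66 ± 0.13 for Drd1 (FDR = 0.00128). Ppp1r1b and Adora2a differed by 0.51 each, with an SE of 0.12, Adcy5 by 0.34 ± 0.11 and Gnal by 0.31 ± 0.09. Drd3 was lower in DS by −2.13 ± 0.27 (FDR = 4.43e-05). In the 5 saline mice alone, 4 of the 9 passed: Drd2, Pde10a and Rgs9 higher and Drd3 lower, where 5.77% of all genes were called higher and 4.35% lower. All 9 myelin genes were also called higher in DS and the 10 other projection neuron markers had a median log2 difference of 0.76, with 9 called higher. The part that a different share of projection neurons or of white matter in the cores played was not tested, and in bulk tissue fewer cells of a type and less RNA per cell cannot be told apart.

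In DS after acute ethanol, 7 of the 9 genes rose when libraries were scaled over all genes, whereas relative to other projection neuron markers 6 of the 9 had negative differences. The 7 were Drd1, Drd2, Ppp1r1b, Adcy5, Gnal, Pde10a and Rgs9, and across all tested genes 2.05% were called higher and 3.1% lower. In 8 of the 9 genes every ethanol library lay above every saline library, as was the case for 14.2% of all genes.

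Adcy5, the cyclase that both receptor types regulate, had the largest change. Its level was 1218, 1336 and 1132 CPM in saline replicates 2, 4 and 6, and 1613, 1619 and 1673 CPM in ethanol replicates 3, 4 and 5. The groups were well apart, and the log2 fold change was 0.37 ± 0.06 (SE; FDR = 0.0053, edgeR).

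Ppp1r1b, the phosphatase inhibitor, stood at 1353, 1732 and 1549.7 CPM in the saline libraries and at 2066, 1986 and 2074 CPM after ethanol. The ethanol libraries were the closer together, and saline replicate 2 was the lowest. The log2 fold change was 0.36 ± 0.07 (FDR = 0.0169, edgeR).

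Drd1 was at 224, 272 and 263 CPM with saline and at 340.1, 323 and 326 CPM with ethanol. The means of 252.8 ± 25.7 and 329.6 ± 9.27 CPM (SD, n = 3 each) gave a log2 fold change of 0.34 ± 0.07 (FDR = 0.0227, edgeR). Drd2 was at 218, 239 and 238 CPM with saline and at 280.3, 279 and 276 CPM with ethanol. The 3 ethanol libraries were nearly equal, all above saline, and the log2 fold change was 0.22 ± 0.06 (FDR = 0.0716, edgeR).

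Pde10a, which hydrolyses the cyclic nucleotides, stood at 1513, 1657 and 1462 CPM with saline and at 1925, 1864 and 1903 CPM with ethanol (log2 fold change 0.25 ± 0.06, FDR = 0.0297, edgeR). Gnal was at 699, 794 and 744 CPM against 929.5, 855 and 896 CPM (0.22 ± 0.06, FDR = 0.0805). Rgs9 was at 427, 526.2 and 416 CPM against 606, 549 and 578 CPM (0.30 ± 0.08, FDR = 0.0761). Ranges of all 3 genes were separate, though Rgs9 of saline replicate 4 came near the lowest ethanol library.

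Adora2a did not pass, although its 3 ethanol libraries, at 299, 289 and 291 CPM, were above its saline libraries at 241, 275 and 235 CPM (log2 fold change 0.18 ± 0.07, FDR = 0.202, edgeR). Drd3 had only 8, 26 and 4 counts in the saline and 14, 26 and 38 counts in the ethanol libraries of DS. Its log2 fold change of 0.24 ± 0.61 (FDR = 0.902, edgeR) had an SE larger than the difference, so that no change was detectable at this depth.

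**Figure D1:**
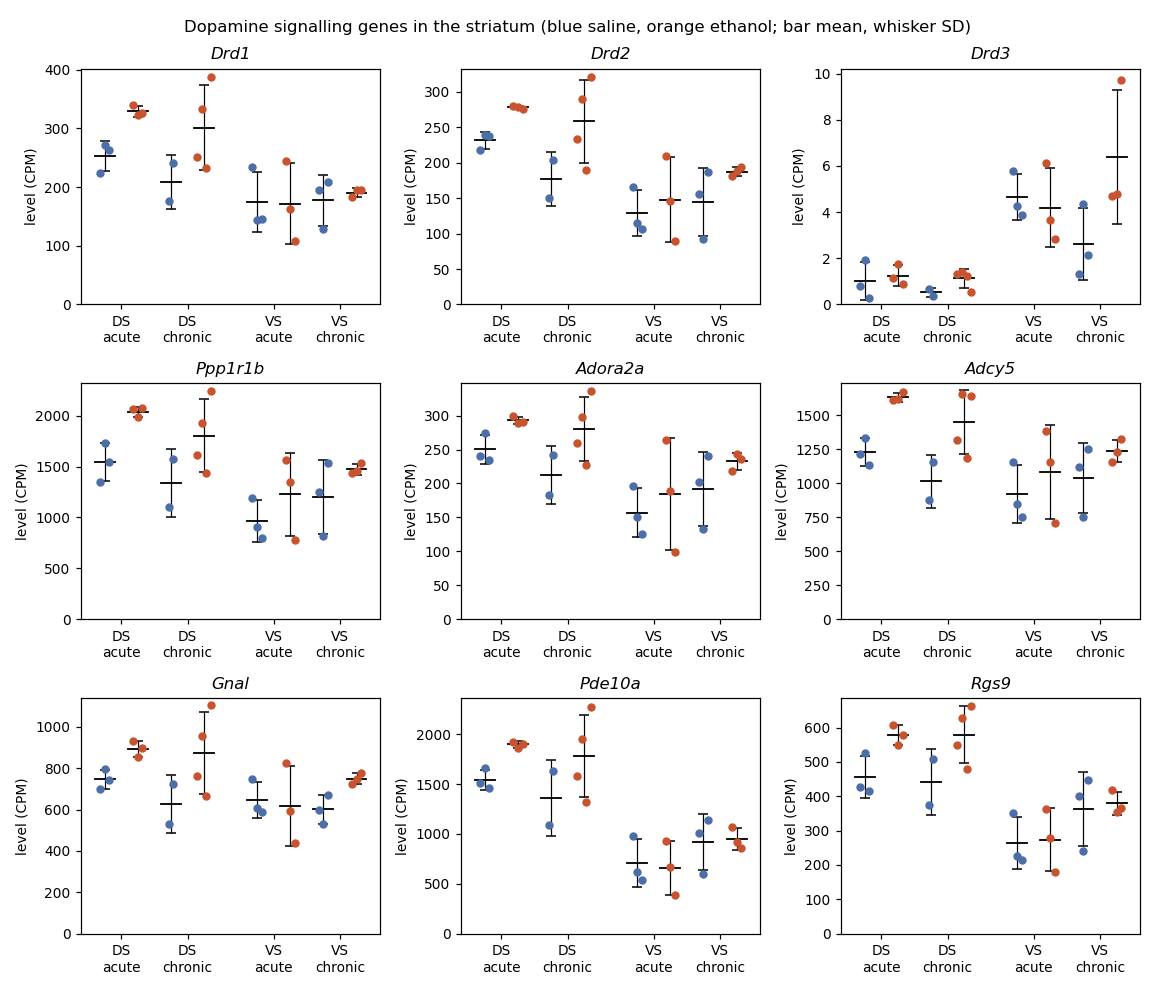
Level of each gene (CPM, vertical axis from 0) in every striatal library, by region and paradigm. Blue points are saline, orange points ethanol, bars are group means and whiskers SD; in DS acute the ethanol points lie above the saline points for every gene except Drd3, whereas in VS acute all 9 ranges overlap.

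The 7 calls were also obtained with DESeq2 (2.7% of all genes called higher), with its size factors in edgeR, without a filter on low counts and with a stricter one. With 1 library left out at a time the number ranged from 3 to 8, where 0.933% to 2.28% of all genes were called higher, being 3 without saline replicate 6 or ethanol replicate 5, 4 without saline replicate 2, ethanol replicate 3 or ethanol replicate 4, and 8 without saline replicate 4. Drd1, Ppp1r1b and Adcy5 were called each time. When the 4 DS groups shared a single estimate of spread, none of the 9 passed (0.404% of all genes called higher), with 4 at an unadjusted p below 0.05.

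The isoforms of these genes were tested in the same way. Of 46 isoforms of these genes tested in DS acute, 20 were called, all higher and from 5 genes, Drd1, Ppp1r1b, Adcy5, Pde10a and Rgs9, against 1.28% of all isoforms called higher. Isoforms of a gene share reads, so these are not independent of the gene values. For the isoform Adcy5-201 the log2 fold change was 0.35 ± 0.06 (FDR = 0.00304, edgeR). DESeq2 called 26 from 7 genes, again against 1.28% of all isoforms called higher. In DS chronic, VS acute and VS chronic, 0 of the 46 were called, with 19, 0 and 9 at an unadjusted p below 0.05 in edgeR. In these comparisons edgeR called 0.0%, 0.233% and 0.00827% and DESeq2 0.467%, 0.708% and 1.02% of all isoforms.

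Markers of neurons from outside the striatum moved with the same libraries. The summed level of 8 markers of pallial excitatory neurons, the glutamatergic cells of cortex and hippocampus, was 396 to 488 CPM in the DS acute saline libraries and 18.3 to 106 CPM in the ethanol libraries, without overlap. All 8 were called lower, with a median log2 fold change of −3.23, among them Slc17a7, the vesicular glutamate transporter of these cells, at −3.20. In the same fit 10 of 10 other projection neuron markers were called higher, with a median of 0.35 against 0.25 for the 9 genes and 0.00 for all genes. Choroid plexus markers, all 6 positive with 2 called higher and a median of 1.55, summed to 23.1 to 297 CPM with saline and 73.2 to 811 CPM with ethanol, and the 4 ependymal markers were positive with a median of 0.61 and none called. The part that a different amount of pallial or ventricular tissue in the cores played in the members' changes was not tested.

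**Figure D2:**
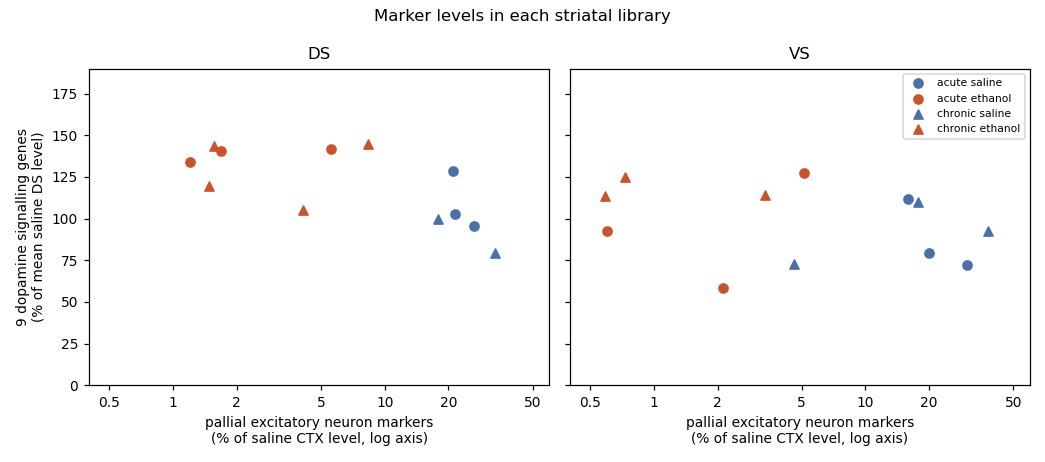
Each point is a striatal library: the horizontal axis (log scale) is the median level of 8 pallial excitatory neuron markers as a percentage of saline CTX, and the vertical axis is the geometric mean of the 9 dopamine signalling genes as a percentage of saline DS. In DS the saline libraries (blue) lie between 17.9% and 33.2% of the cortical marker level and the ethanol libraries (orange) between 1.21% and 8.31%, with members at 79.2% to 129% and 105% to 144% respectively.

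The 10 projection neuron markers, among them Rasd2, Scn4b, Rarb and Pde1b, offered a scale within the same libraries. It is not confined to the same cells, since some of the markers are also indirect pathway genes and some were abundant in CTX. In the CTX libraries other than acute saline replicate 6, the median was 176 CPM for Scn4b, 136 for Pde1b, 94.9 for Rasd2 and 7.57 for Rarb. When the DS acute libraries were scaled to this list, the median log2 fold change of all genes moved from 0.00 to −0.33. On that scale Drd1 was at 0.01, Ppp1r1b and Adcy5 at 0.03, Rgs9 at −0.04, Pde10a at −0.08, Drd2 and Gnal at −0.12 and Adora2a at −0.15. Adora2a was the 1 gene of the 9 called, lower (FDR = 0.0975, edgeR), where 43.1% of all genes were called lower, whereas 7 were called higher under TMM.

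In DS after chronic ethanol, none of the 9 genes passed, and no gene of the 19844 tested did (0.0%). DS chronic saline replicate 2 was left out here, so 2 saline libraries stood against 4. All 9 fold changes were positive under TMM, with a median log2 fold change of 0.45, whereas on the projection neuron scale 5 of the 9 were negative. At an unadjusted p below 0.05 there were 5 of the 9 genes in edgeR, and DESeq2 called 0 of the 9 and 0.776% of all genes.

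Drd1 was at 177 and 242 CPM in saline replicates 3 and 6 and at 252, 333, 233 and 388 CPM in ethanol replicates 1, 4, 5 and 6 (log2 fold change 0.50 ± 0.20). Drd2 was at 150.2 and 204 CPM against 233, 290.2, 189.6 and 321 CPM (0.52 ± 0.20). Ppp1r1b was at 1107 and 1580.5 CPM against 1611, 1932, 1434 and 2248 CPM (0.40 ± 0.19). In all 3 genes saline replicate 3 was lowest, and ethanol replicate 5 was below saline replicate 6.

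Adcy5, at 875 and 1154 CPM against 1321, 1657, 1184 and 1644 CPM, was the only gene of the 9 whose groups did not overlap, as for 9.6% of all genes, ethanol higher. Its log2 fold change was 0.50 ± 0.17 (FDR = 0.542, edgeR). The fold changes of Adora2a, Gnal, Pde10a and Rgs9 lay between 0.37 and 0.45, and the FDR of the 9 genes between 0.542 and 0.739. Drd3, with 4 to 20 counts in each library, was at 1.07 ± 0.63. The summed pallial markers were at 413 and 609.7 CPM in the saline libraries and at 24.0 to 156 CPM in the ethanol libraries, and the choroid plexus markers at 1888 and 7124 CPM against 22.4 to 3036 CPM. Scaling to the projection neuron list moved the median of all genes to −0.49 here. Their part in the members' values was not tested.

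In VS after acute ethanol, 0 of the 9 genes passed in edgeR or DESeq2 and 0 reached an unadjusted p below 0.05, where edgeR called 0.0399% and DESeq2 0.889% of all genes. The ranges of saline and ethanol overlapped for each of the 9, against 6.57% of all genes with ethanol entirely higher and 6.08% entirely lower.

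The spread between libraries was wide. Drd1 was at 234, 144 and 146 CPM in saline replicates 2, 4 and 6 and at 245, 162 and 108 CPM in ethanol replicates 2, 3 and 5 (log2 fold change −0.04 ± 0.28). Ppp1r1b was at 1192, 905 and 793 CPM against 1565, 1349 and 775 CPM (0.34 ± 0.24). Ethanol replicate 5 was the lowest of the 6 libraries for each of the 9 genes, and ethanol replicate 2 the highest for all but Pde10a, whose highest was saline replicate 2. For the other genes the log2 fold change was between −0.14 ± 0.32 for Drd3 and 0.22 for Adora2a and Adcy5, each within its SE, and the FDR of the 9 genes was 0.845 to 0.99. Leaving out 1 library at a time turned the sign for 7 of the 9. The pallial markers summed to 320 to 789 CPM in the saline and 14.9 to 119 CPM in the ethanol libraries, also without overlap.

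In VS after chronic ethanol, 0 of the 9 passed (0.0% of all genes), with 2 at an unadjusted p below 0.05 and 0 called by DESeq2, which called 1.79% of all genes. These 2, Drd3 and Gnal, were also the 2 whose ethanol libraries all lay above their saline libraries, as for 8.87% of all genes.

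Drd3 was at 1.33, 4.36 and 2.14 CPM (22, 62 and 26 counts) in saline replicates 3, 5 and 6 and at 4.69, 4.76 and 9.74 CPM (67, 99 and 149 counts) in ethanol replicates 1, 4 and 6. Saline replicate 5 came close to the lower ethanol libraries. The log2 fold change of 1.29 ± 0.46 had an FDR of 0.404 in edgeR. It passed when saline replicate 5 was left out (1.36% of all genes called higher) and when no filter on low counts was used (0.699%).

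Gnal was at 598, 532 and 673 CPM with saline and at 723, 749 and 779 CPM with ethanol (log2 fold change 0.31 ± 0.10, FDR = 0.369, edgeR). Drd1 was at 196, 128 and 209 CPM against 182, 194 and 196 CPM (0.10 ± 0.16), and Drd2 at 156, 92.7 and 187 CPM against 181, 188 and 194 CPM (0.36 ± 0.21). For both receptors saline replicate 5 was the lowest of the 6 libraries. The fold changes of Ppp1r1b, Adora2a and Adcy5 were 0.24 to 0.29, and those of Pde10a and Rgs9 were 0.04 and 0.05. The median of all genes moved to −0.28 on the projection neuron scale, where Drd1 (−0.12), Pde10a (−0.16) and Rgs9 (−0.15) were negative. The pallial markers summed to 51.7 to 709 CPM with saline and 10.6 to 69.7 CPM with ethanol, overlapping through saline replicate 5. All 5 choroid plexus markers tested (median −2.105), all 4 ependymal markers (−1.21) and all 9 myelin genes (−0.41) were negative here. So were all 5 dentate and hippocampal markers (−1.58), while of 5 thalamic markers 2 were positive and 3 negative. None of these genes was called, and their part in the values of Drd3, Gnal and the other members was not tested.

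**Figure D3:**
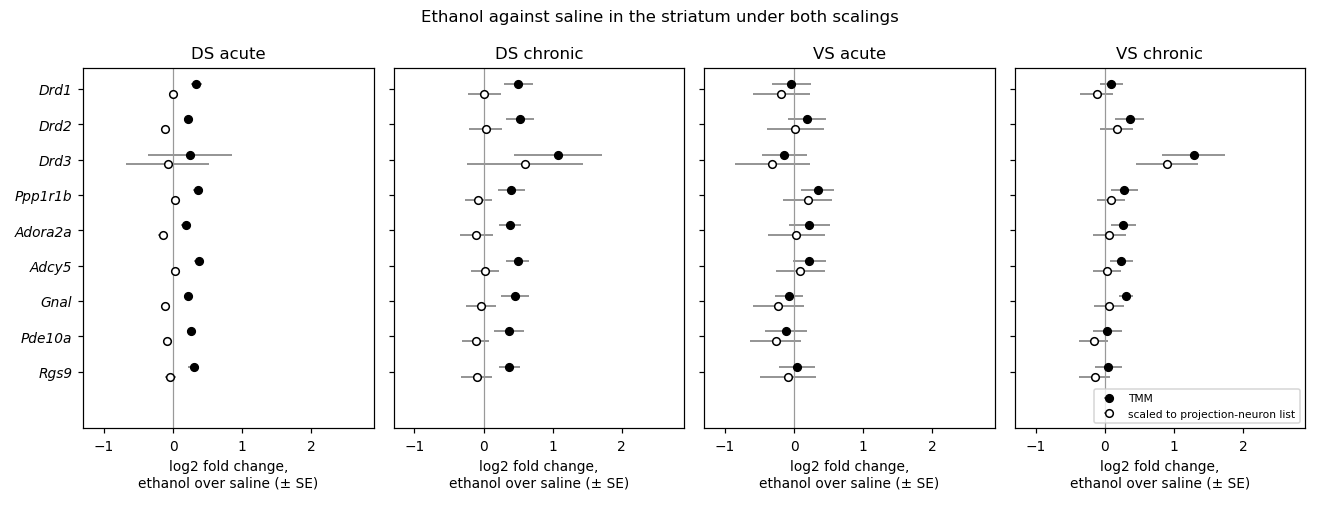
Log2 fold change of ethanol over saline with its SE (horizontal axis) for each gene in the 4 striatal comparisons, with libraries scaled over all genes (TMM) and with libraries scaled to 10 other projection neuron markers. In DS acute 7 genes are called higher under TMM, and on the projection neuron scale 6 of the 9 lie below 0 with Adora2a called lower at −0.15.

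The difference between the chronic and acute effect was tested as an interaction in each region. None of the genes passed in any of the 5 regions in edgeR, which called no gene at all (0.0% in each), or in DESeq2. The share of all genes that DESeq2 called was 2.02% in vHPC, against 0.0791% for CTX, 0.0191% for VS, 0.019% for DS and 0.00745% for dHPC. At an unadjusted p below 0.05 edgeR had 1 of the 9 genes in VS, 1 in dHPC and 0 elsewhere. The larger number of calls in DS acute than in DS chronic was therefore not accompanied by a detectable difference of the 2 effects. In VS the largest was that of Drd3, at 1.43 ± 0.60 (FDR = 0.997, edgeR).

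A list of 36 other genes of dopamine receptor, cAMP and phosphatase signalling was followed beside the 9. In DS acute, 35 could be tested, and 13 were called higher and 3 lower, with a median log2 fold change of 0.14 against 0.00 for all genes. The 3 with the largest changes were Adcy1, a calmodulin-stimulated cyclase abundant in cortex and hippocampus, at −0.70 ± 0.09 (FDR = 0.000587), Gnas, the widespread stimulatory G protein subunit, at −0.57 ± 0.10 (FDR = 0.00713), and Rasd2, a striatal small GTPase that is also in the projection neuron list, at 0.45 ± 0.07 (FDR = 0.00241, all edgeR). The cyclase and G protein subunit of the striatal pair, Adcy5 and Gnal, were thus called higher and Adcy1 and Gnas lower in the same libraries when scaled over all genes, while on the projection neuron scale Adcy5 was at 0.03 and Gnal at −0.12 without passing. In DS chronic, VS acute and VS chronic edgeR called none of the 35, with 12, 1 and 8 at an unadjusted p below 0.05.

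Of 7 genes for dopamine synthesis, transport and breakdown, 6 were tested in DS acute and 1 was called, Th, the rate-limiting enzyme of dopamine synthesis, higher at 0.87 ± 0.25 (FDR = 0.0822, edgeR). Of 4 other genes of the direct pathway, 1 was called higher, Pdyn, which encodes prodynorphin, at 0.69 (FDR = 0.016). Of 4 of the indirect pathway 3 were called higher, among them Penk, which encodes proenkephalin, at 0.33 (FDR = 0.097).

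Each gene's level relative to the mean of the 10 projection neuron markers was also compared over both paradigms by an exact two-sided permutation test within paradigm, with adjustment over all genes. In DS, 3 of the 9 passed an adjusted p of 0.1, all lower after ethanol, where 41.3% of all genes were called lower. These were Gnal at −0.08 and Pde10a at −0.10 (log2, exact permutation p = 0.01 and adjusted p = 0.0492 for both) and Adora2a at −0.13 (p = 0.0233, adjusted p = 0.0717). The share of the 9 was thus not above that of all genes, and without DS chronic saline replicate 3 none passed. Drd1 (0.01), Adcy5 (0.02) and Ppp1r1b (−0.02) were within 0.03 of the list. In VS none passed (0.0% of all genes). With equal group sizes the smallest two-sided p possible was 0.005, too large for a single gene to pass adjustment over 20901 genes by itself. The count of 0 therefore cannot decide for any single gene in VS. The smallest unadjusted values there were for Drd1 at −0.15 (exact permutation p = 0.005) and Pde10a at −0.21 (p = 0.01), both with an adjusted p of 0.886, and 4 of the 9 had an unadjusted p below 0.05, as had 4.78% of all genes.

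The ratio of Drd1 to Drd2, each as CPM per kb, sets the receptor of the direct pathway against that of the indirect pathway within a library. In VS acute it was 0.989, 0.879 and 0.963 in the saline libraries and 0.821, 0.781 and 0.849 in the ethanol libraries. In VS chronic it was 0.881, 0.969 and 0.785 with saline and 0.707, 0.726 and 0.709 with ethanol. Every VS ethanol library lay below every VS saline library of its paradigm. The mean log2 difference was −0.25, being −0.21 in acute and −0.29 in chronic mice. Its exact two-sided permutation p was 0.005, and 0.01 when adjusted over the 2 striatal regions. With equal group sizes, swapping all treatment labels gives the same absolute difference, so 0.005 was the smallest two-sided p possible. With 1 library left out the mean difference ranged from −0.29 to −0.21.

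In DS the ratio was 0.720, 0.799 and 0.774 with acute saline and 0.852, 0.812 and 0.830 with acute ethanol. In DS chronic it was 0.825 and 0.832 with saline and 0.759, 0.806, 0.862 and 0.848 with ethanol. The acute ethanol libraries were above saline and the chronic ones on both sides, giving a mean log2 difference of 0.05 (exact permutation p = 0.277, smallest possible 0.00333). With Adora2a in place of Drd2 as the indirect pathway gene, the log2 difference was −0.20 in VS (exact permutation p = 0.025) and 0.14 in DS (p = 0.0333). Within the 10 mice that gave both striatal regions, the ethanol effect on the Drd1 to Drd2 ratio in DS minus that in VS was 0.26 (exact permutation p = 0.02, smallest possible 0.01), a test chosen after the ratios had been seen. Neither receptor gene on its own was called in VS. The 4 other direct pathway genes had median log2 fold changes of 0.11 in VS acute and 0.43 in VS chronic. Those of the 4 indirect pathway genes were 0.22 and 0.42, and none of either list was called. The summed pallial markers of the same VS libraries are given above, and their part in the ratio was not tested.

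**Figure D4:**
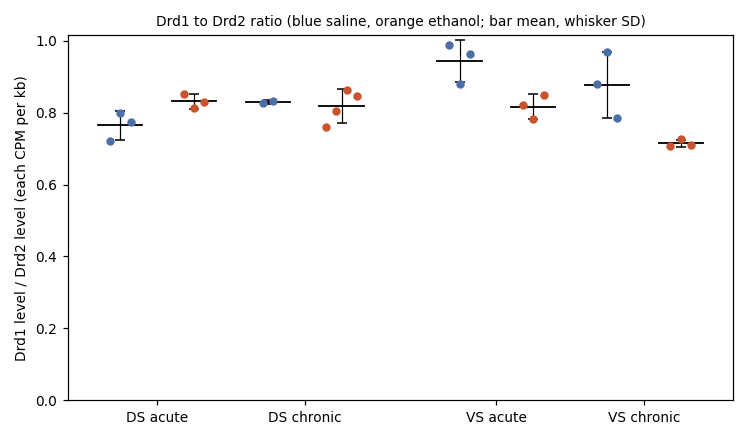
Ratio of Drd1 to Drd2 level, each as CPM per kb (vertical axis from 0), in every striatal library, blue for saline and orange for ethanol, with group means and SD. In VS the ethanol libraries, 0.707 to 0.849, lie below the saline libraries of the same paradigm, while in DS the chronic groups overlap.

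Outside the striatum, the geometric mean of the 9 genes as a percentage of saline DS served as an index of striatal expression. Expression native to these regions was not separated from it, and saline CTX stood at 1.60% for Drd2 but 20.9% for Gnal. Drd3 entered with few or no counts, where the prior count of 0.5 and library depth weigh on the value. The index was 3.65% to 7.01% in CTX (median 4.74%), 4.29% to 27.3% in vHPC (median 6.66%) and 3.78% to 51.5% in dHPC (median 8.74%). Of the 37 libraries from these regions, 3 exceeded 20%. In those 3 the projection neuron list, which shares no gene with the 9, was also raised.

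The highest was dHPC chronic saline replicate 5, with the 9 genes at 51.5% and the projection neuron list at 48.3% of saline DS, while its pallial markers were at 60.9% of saline CTX. All 9 genes were at their highest there among the 13 dHPC libraries. Adora2a, at 133 CPM, was 13.7-fold the median of the other dHPC libraries, Drd2, at 105 CPM, 10.6-fold and Drd1, at 89.2 CPM, 9.43-fold. Rgs9 (203 CPM) was 8.48-fold, Ppp1r1b (732 CPM) 6.03-fold and Pde10a (694 CPM) 5.62-fold, but Adcy5 (645 CPM) was 3.71-fold and Gnal (345 CPM) 2.33-fold. Without this library the dHPC range was 3.78% to 17.7% with a median of 8.21% (n = 12). The other two were vHPC chronic ethanol replicate 5, at 27.3% with the list at 25.6%, and vHPC acute ethanol replicate 4, at 22.3% with the list at 19.3%.

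**Figure D5:**
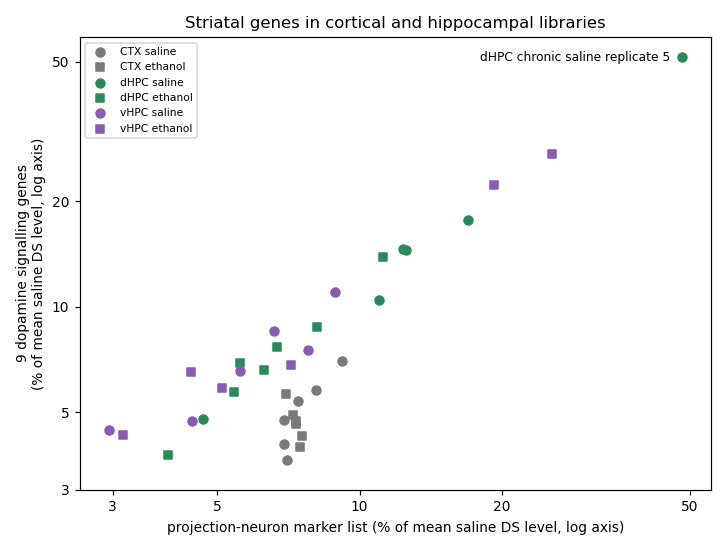
Each point is a library from CTX, dHPC or vHPC: the horizontal axis is the projection neuron marker list and the vertical axis the 9 dopamine signalling genes, both as percentages of saline DS on log scales. dHPC chronic saline replicate 5 stands at 48.3% and 51.5%, vHPC chronic ethanol replicate 5 at 25.6% and 27.3% and vHPC acute ethanol replicate 4 at 19.3% and 22.3%, the others being below 18% on the vertical axis.

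In dHPC after acute ethanol, 8 of the 9 fold changes were negative and 0 passed in edgeR (0.042% of all genes called) or DESeq2 (1.07%), although 7 were at an unadjusted p below 0.05. Adora2a was at 40.2, 29.3 and 21.6 CPM in saline replicates 2, 4 and 5 and at 11.7, 7.64, 20.4 and 6.19 CPM in ethanol replicates 2, 3, 4 and 5 (log2 fold change −1.40 ± 0.34, FDR = 0.316). Rgs9 was at 64.3, 46.4 and 40.1 CPM against 25.9, 20.0, 37.4 and 18.9 CPM (−0.97 ± 0.22, FDR = 0.266), and Pde10a at 275, 205 and 178 CPM against 133, 105, 176 and 105 CPM (−0.75 ± 0.18, FDR = 0.316). These 3 had no overlap between groups, ethanol lower, as for 4.7% of all genes, with ethanol replicate 4 nearest to the saline libraries. Without that replicate 5 of the 9 passed, all lower, where 0.166% of all genes were called lower. The 10 projection neuron markers were all negative in the same fit, with a median of −0.74, beside −0.38 ± 0.13 for Adcy5 and −0.22 ± 0.13 for Gnal.

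In dHPC after chronic ethanol, all 9 fold changes were negative, from −0.61 for Gnal to −3.44 for Adora2a, and 0 passed (FDR of 0.566 to 0.678, 0.0% of all genes called), with 8 at an unadjusted p below 0.05 and 0 called by DESeq2 (0.859% of all genes). Drd1 was at 21.3, 89.2 and 5.83 CPM in saline replicates 2, 5 and 6 and at 6.99, 7.55 and 4.06 CPM in ethanol replicates 1, 4 and 6. The saline libraries thus spread over more than the distance between the groups. Without saline replicate 5 the fold changes were closer to 0, at −1.599 for Adora2a, −1.14 for Drd1, −0.37 for Pde10a and 0.00023 for Gnal. Drd3 was the 1 gene without overlap in CPM, ethanol lower as for 6.59% of all genes, but on 18, 23 and 6 counts against 6, 4 and 2, a saline and an ethanol library having equal counts. The projection neuron markers had a median of −2.01. In the same fit all 6 choroid plexus markers (median −1.385), all 4 ependymal markers (−0.91) and all 9 myelin genes (−0.35) were negative. All 5 dentate and hippocampal (0.66) and all 5 thalamic neuron markers (0.38) were positive, and none of these genes was called. Their part in the values of the 9 genes was not tested.

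In CTX after acute ethanol, 1 of the 8 genes tested was called, Pde10a, lower, against 1.17% of all genes called lower. Pde10a was at 105, 93.1 and 81.0 CPM in saline replicates 2, 4 and 6 and at 76.4, 69.2 and 77.6 CPM in ethanol replicates 2, 4 and 5. The log2 fold change was −0.32 ± 0.08 (FDR = 0.097, edgeR), and when single libraries were dropped the call held only without saline replicate 6. DESeq2 called Adora2a and Pde10a, both lower, where it called 2.21% of all genes lower. Pde10a was without overlap, ethanol lower, as for 9.02% of the genes that passed the filter. Drd3, which did not pass it, had 4, 2 and 6 counts against 0, 0 and 2. In CTX chronic, vHPC acute and vHPC chronic, 0 of the 8 genes tested passed in edgeR or DESeq2, where edgeR called 0.0%, 0.0% and 0.0555% of all genes and DESeq2 0.608%, 2.9% and 1.08%. All 8 fold changes were positive in vHPC, up to 1.11 in acute and 2.06 in chronic mice, both for Adora2a. Without vHPC acute ethanol replicate 4, 7 of the 8 were negative, Adora2a at −0.89, and without vHPC chronic ethanol replicate 5, 6 of the 8 were, Adora2a at −0.40. Drd3, which did not pass the filter, had 6, 4 and 4 counts against 0, 2 and 2 in vHPC acute. Gnal in vHPC chronic, at 126, 134 and 134 CPM against 143, 248 and 153 CPM, was higher without overlap (8.32% of all genes). The libraries vHPC acute ethanol replicate 4 and chronic ethanol replicate 5 were those with the raised projection neuron list. At an unadjusted p below 0.05 there were 0 of the genes in CTX chronic, 0 in vHPC acute and 2 in vHPC chronic. In vHPC chronic the choroid plexus markers also summed to 26.1 to 207 CPM with saline and 898 to 3155 CPM with ethanol, with 3 of 6 called higher and a median of 3.84, and the 9 myelin genes were positive with a median of 0.69 and none called. Their part in the values of the 8 genes was not tested.

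Across the 24 complete striatal libraries, the 8 genes other than Drd3 were correlated with each other at a Pearson r of 0.82 to 0.978 in log2 CPM, whereas Drd3 stood at −0.649 to −0.236 with them. These libraries share mice, region and tissue composition, so the values are a description. Among 12576 genes with a mean of at least 5 CPM, the patterns most like those of the members were Dgkb (0.982) and Gabra4 (0.978) for Drd1, Pde1b (0.975) and Tbc1d8 (0.972) for Drd2, and Cartpt (0.919) and Ntn1 (0.911) for Drd3. Pde1b was nearest to Ppp1r1b (0.989, followed by Fbxl16 at 0.973) and to Adora2a (0.973, followed by Asic4 at 0.955), and Asic4 (0.978) and Pde1b (0.964) were nearest to Adcy5. Gnal was most like Cacna2d3 (0.971) and Slmap (0.967), and Rgs9 was most like Tgfa and Scn4b (0.976 each). Strn was among the genes most like Pde10a (0.986).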

How the data were processed

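The authors used cutadapt 5.0 for trimming, STAR 2.7.10a for alignment to GRCm39 and featureCounts 2.0.6 for counting (versions per the submitters' processing notes). The deposited values were raw counts per gene and per isoform, reverse-stranded, with multi-mapping and overlapping pairs counted for each feature. The kit of the CTX and dHPC libraries was not directional, that of the other regions was.

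Counts were tested per region and paradigm with edgeR 4.0.16 (quasi-likelihood F test, TMM) in R 4.3.3, after a filter that kept a gene if 2 or more samples of any group reached 5 counts, with Benjamini-Hochberg FDR over all genes and a threshold of 0.1. DESeq2 1.42.0, its size factors, other filters, a fit of all 4 groups of a region, a replicate block and leaving out each library were alternatives. Scaling to the projection neuron list and the test of the Drd1 to Drd2 ratio between DS and VS were added after seeing the data. DS was compared with VS with the mouse as the block, since the labels give both regions the same mouse number. Ratios used log2 CPM with a prior count of 0.5 and exact permutation tests (NumPy 2.4.6). The plan was to adjust these over 20 tests together. Instead, tests of single genes were adjusted over all genes of the region. The test of the Drd1 to Drd2 ratio was adjusted over the 2 striatal regions only, a smaller family than planned. The script was tested on simulated data.

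The 9 genes and all lists were chosen with earlier results of these data known. The genes named outside the 9 are the up to 3 of the signalling list with the largest called changes and up to 2 most correlated with each gene. Th, Pdyn, Penk and Slc17a7 were picked as examples after their values were seen. Some list and correlated genes are not reported here by name. Each group's libraries came from separate mice.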

Additional observations from a re-analysis of the deposited data

Results flagged for a closer look

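The effect of ethanol on the Drd1 to Drd2 ratio was compared between the striatal regions in a test chosen after the ratios had been seen. It reused the values that had shown the VS difference. Within the 10 mice with both regions, DS minus VS was 0.26 on the log2 scale (exact permutation p = 0.02, smallest possible 0.01). The ratio was lower after ethanol in VS.

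For 4 genes, ethanol and saline libraries were completely separate in opposite directions in different regions, a difference that was not tested. The share of all genes with such a pair was not computed, so the count of 4 has no background. In single comparisons, 4.7% of all genes were entirely lower in dHPC acute, 9.02% in CTX acute and 6.59% in dHPC chronic. Entirely higher were 14.2% in DS acute and 8.87% in VS chronic. The values below are log2 ratios of mean CPM, ethanol over saline. Adora2a stood at −1.40 in dHPC acute and at 0.23 in DS acute. Pde10a stood at −0.32 in CTX acute and −0.76 in dHPC acute, but at 0.30 in DS acute. Rgs9 stood at −0.98 in dHPC acute and at 0.34 in DS acute. Drd3 stood at −2.13 in dHPC chronic and at 1.29 in VS chronic, on 2 to 149 counts in a library. In dHPC chronic a saline and an ethanol library had equal Drd3 counts, at 6, and differed only in library size. Scaling to the projection neuron list moved the median of all genes by −0.33 in DS acute, and Adora2a, Pde10a and Rgs9, at −0.15, −0.08 and −0.04 on that scale, were above that median. In dHPC acute the projection neuron markers were lower as well, with a median log2 fold change of −0.74, and in DS acute they were higher, at 0.35. Their part in the 4 pairs was not tested.

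Of 18 sets of a gene and a group of 4 libraries, none had an outlying library by Dixon's criterion. The smaller groups were not tested. Among them were those holding dHPC chronic saline replicate 5, vHPC acute ethanol replicate 4 and vHPC chronic ethanol replicate 5.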

How the results depend on the processing

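Of the 94 values of counts and ratios under alternatives that kept all libraries, 81 stayed within 1.5 times the value given above or on the same side of the threshold, and of 180 with 1 library left out 167 did. Many of these were counts of 0 that stayed 0, mostly where edgeR called few or no genes, so the totals say little about stability. The DS acute count of 7 stayed within 1.5 times only without saline replicate 4. The cause of the changes below was not tested. Without a low-count filter, 3 of the genes were called in CTX acute (lower, as were 2.58% of all genes), 6 in dHPC acute (lower, 0.389%), 7 in vHPC chronic (higher, 1.76%), 3 in DS chronic (higher, 0.536%) and 1 in VS chronic (higher, 0.699%). DESeq2 called 2 in CTX acute. The fit of all 4 groups of a region called 0 in CTX acute and 0 in DS acute. Scaling to the projection neuron list left 1 call in DS acute. The saline mice alone gave 4 calls for DS against VS. For the level relative to projection neuron markers in DS, the list median and the other 8 genes as reference gave 1 call each. Drd1 to Adora2a in DS gave 0.14 (exact permutation p = 0.0333).

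With 1 library left out, calls ranged from 0 to 1 in CTX acute, 0 to 5 in dHPC acute, 3 to 8 in DS acute, 0 to 1 in VS chronic and 0 to 3 for the relative level in DS. Gene values that changed sign were Drd3 in DS acute (−0.22 to 1.17), and in VS acute Drd1 (−0.39 to 0.23), Drd2 (−0.15 to 0.45), Drd3 (−0.535 to 0.0913), Adora2a (−0.14 to 0.52), Gnal (−0.34 to 0.12), Pde10a (−0.44 to 0.19) and Rgs9 (−0.22 to 0.30). In VS chronic they were Drd1 (−0.0927 to 0.23), Pde10a (−0.19 to 0.23) and Rgs9 (−0.17 to 0.24), in dHPC chronic Gnal (−0.91 to 0.00023), and for Adora2a in vHPC acute (−0.89 to 1.66) and vHPC chronic (−0.40 to 3.08).

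Scaled to the projection neuron list, which moved the median of all genes by −0.33 in DS acute, −0.49 in DS chronic, −0.06 in VS acute and −0.28 in VS chronic, the sign turned in DS acute for Drd2 (−0.12), Drd3 (−0.0746), Adora2a (−0.15), Gnal (−0.12), Pde10a (−0.0822) and Rgs9 (−0.0371), in DS chronic for Ppp1r1b (−0.0753), Adora2a (−0.10), Gnal (−0.0371), Pde10a (−0.11) and Rgs9 (−0.10), in VS acute for Rgs9 (−0.0871) and in VS chronic for Drd1 (−0.12), Pde10a (−0.16) and Rgs9 (−0.15).

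Saline and ethanol mice with the same replicate number are different mice. A replicate block could be fitted in CTX acute, CTX chronic and dHPC acute and gave 1, 0 and 0 calls, as without it. Correlations of same-numbered libraries were 0.0581 to 0.106 in CTX acute, −0.258 to 0.0399 in CTX chronic and −0.0225 to 0.0249 in dHPC acute. Those of differently numbered libraries were −0.0999 to 0.0405, −0.137 to 0.231 and −0.0905 to 0.11. In CTX acute the same-numbered pairs lay above the others. With 2, 2 and 3 same-numbered pairs, these values cannot decide whether the numbers carry any pairing. Without the mouse block DS and VS differed for the same 9 genes. Elsewhere no paired analysis was possible because the groups shared fewer than 2 numbers. Drd3, with 0 to 149 counts in a library, was the gene most limited by depth.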
